A study of Mus musculus with 6 samples.

Results

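Complex I, the NADH:ubiquinone oxidoreductase of the mitochondrial inner membrane, was examined through its nuclear-encoded genes in mouse gastrocnemius. Members were all annotated genes whose mouse symbol begins with Ndufa, Ndufb, Ndufc, Ndufs, Ndufv, Ndufab or Ndufaf followed by a number, with pseudogenes left out. The rule took 46 genes of the 49315 in the count tables: 36 encode subunits, 8 are assembly factors named Ndufaf, and 2 (Ndufa4 and Ndufa4l2) carry the family name but encode no complex I subunit. Another 4 matching genes, Ndufab1-ps, Ndufs6b, Ndufb4c and Ndufa11b, are processed pseudogenes and were left out, each with at most 34 counts in any library. RNA sequencing libraries came from the gastrocnemius, the large superficial calf muscle: 3 carry the label mKO, for deletion of Hnrnpu in muscle, and 3 the label WT. All came from mice 3 months old and of a mixed background of C57BL/6 and 129. Hnrnpu encodes a nuclear RNA-binding protein. Neither the Cre driver nor the extent of the deletion is named in the sources used here.

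Complex I passes electrons taken from NADH to ubiquinone and couples this to proton pumping across the inner membrane. It is L-shaped: a matrix arm holds the flavin, the iron-sulphur clusters and the site where ubiquinone is reduced, and a membrane arm holds the proton pumps, whose central proteins are encoded by mitochondrial DNA. Core subunits are conserved from bacteria and carry the catalysis, accessory subunits surround and stabilise them, and assembly factors help to build the complex and are absent from the finished enzyme. Skeletal muscle draws on it for oxidative ATP supply, most in fibres rich in mitochondria.

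Total counts ranged from 32108684 to 38095211 in the mKO libraries and from 34871043 to 42344238 in the WT libraries. Hnrnpu itself had 209, 210.3 and 205 CPM in mKO libraries 1, 2 and 3, against 233, 235 and 247 CPM in WT libraries 1, 2 and 3 (CPM, depth-scaled counts, here with the library size scaled by edgeR's TMM factors, the trimmed mean of M-values). Those groups did not overlap, but the log2 fold change of -0.20 (SE 0.10) was not called (edgeR adjusted p = 0.147). Scaled by library totals alone, Hnrnpu was higher in mKO (log2 fold change 0.27, edgeR adjusted p = 0.0405), so its RNA level does not check the labels, and counts per gene cannot show whether the deleted part was missing. The TMM factors differed by group, 1.15 to 1.20 in mKO and 0.845 to 0.859 in WT. Over all 16650 genes tested the median log2 fold change was 0.49 with library totals, against 0.02 with TMM factors, a shift of all values by about the same amount. The values below use TMM factors unless library totals are named.

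Other cell types also differed between the groups. The summed CPM of 7 listed muscle fibre markers ranged from 37773 to 44082 in mKO and from 90951 to 113031 in WT, with 5 of 7 genes lower by edgeR (4 with library totals). That of 7 macrophage markers ranged from 479 to 784 in mKO and from 224 to 272 in WT, with all 7 higher, also with library totals. Every mKO library was thus below every WT library in the summed fibre markers and above it in the summed macrophage markers. Singly, the fibre markers Myh1 and Myh7 overlapped between the groups and were not called. Myh7 had 38.6, 359 and 45.1 CPM in mKO and 159, 126 and 36.6 CPM in WT. Its log2 fold change was 0.47, and those of the other 6 fibre markers were below 0. The sum of 6 endothelial markers ranged from 142 to 157 in mKO and from 225 to 299 in WT, with all 6 lower (2 with library totals). That of 6 fibroblast markers ranged from 2282 to 2465 in mKO and from 1714 to 1930 in WT, with 2 of 6 higher (5 with library totals). None of the 5 adipocyte and 4 Schwann cell markers was called under either scaling, with sums of 12.6 to 29.5 and of 9.04 to 37.3 CPM in mKO, against 14.2 to 34.4 and 18.4 to 26.8 CPM in WT. The sum of 3 erythrocyte markers was 3.19 to 6.32 CPM in mKO and 13.6 to 17.5 CPM in WT, with 2 of 3 lower under either scaling. No listed marker was at 0 in any group. In whole muscle, fewer fibres or mitochondria-rich cells and less RNA per cell cannot be told apart, and the part these shifts have in the results below was not tested.

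Most nuclear complex I subunit genes were lower in mKO muscle, and those with the largest falls were core subunits of the matrix arm. All 46 members passed the filter on low counts. Of 36 subunits, 30 were lower in mKO at an edgeR adjusted p under 0.05 (83.3%) and 0 were higher, where 18.9% of all genes tested were called lower and 18.2% higher (37.0% in all). Their median log2 fold change was -0.62, with a range of -1.15 to -0.23, and the median subunit stood at 65.3% of its WT mean. The 3 mKO libraries lay below all 3 WT libraries for 28 of 36 subunits, and for 0 the other way round; groups were apart in either direction for 49.3% of all genes, 4002 of them lower in mKO. The count of 0 higher also held at an unadjusted edgeR p under 0.05, where 33 subunits were lower, and in DESeq2, with 32 lower, and limma-voom, with 30 lower. Scaled by library totals, 10 subunits were called lower and 0 higher, 27 of 36 log2 fold changes were below 0, and the median was -0.15, where 6.75% of all genes were called lower and 49.0% higher (55.7% in all). The subunit median minus the median of all genes was -0.64 on the log2 scale, a difference that a change of library size leaves nearly as it is.

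**Figure D1:**
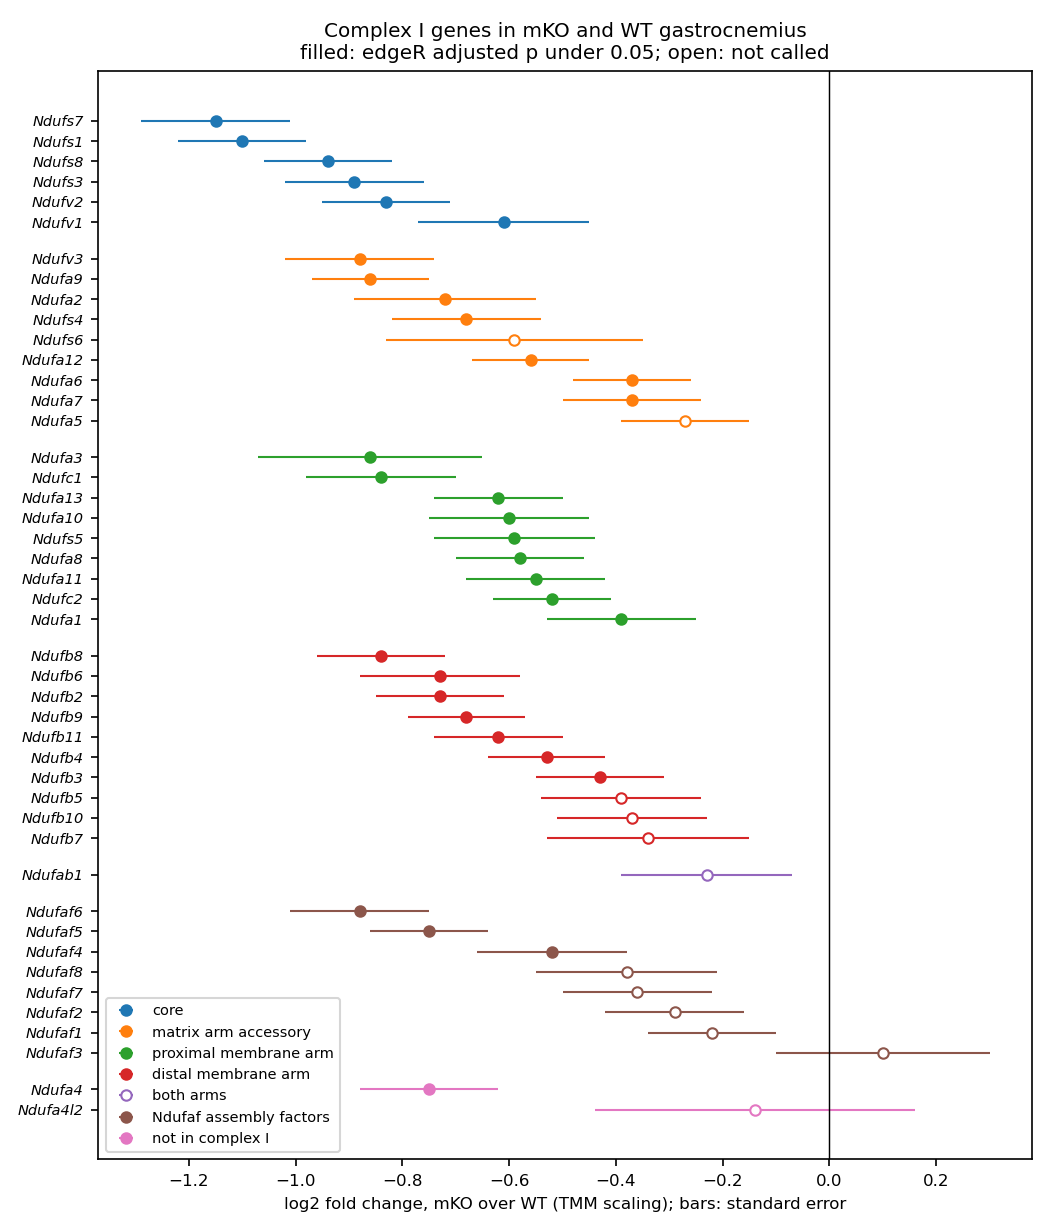
Log2 fold change, mKO over WT with TMM factors, of 45 of the genes (one row per gene, bars are the standard error, n = 3 libraries a group), grouped by place in the complex. Filled points have an edgeR adjusted p under 0.05: the core subunits drawn reach from -1.15 to -0.61, and only Ndufaf3 lies above 0; with library totals as the scale every point moves right and 15 of the 45 lie above 0.

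The nuclear core subunits sit in the matrix arm, and the 6 described here all fell, without overlap between the groups. Ndufs7, which carries the last iron-sulphur cluster before ubiquinone, lies on chr10:80249121-80256794, plus strand of the GRCm38 build. It had 118, 87.6 and 99.1 CPM in the 3 mKO libraries, against 201, 256 and 219 CPM in the 3 WT libraries. Every mKO value was below every WT value, with 45.2% of the WT mean left (log2 fold change -1.15, SE 0.14, adjusted p = 4.54e-05, edgeR). Ndufs1 is the largest subunit of the matrix arm and holds several iron-sulphur clusters (chr1:63143596-63176833, minus strand). Its values were 433, 361 and 402 CPM in mKO and 809.6, 810.0 and 940.1 CPM in WT, a fall to 46.8% of the WT mean (log2 fold change -1.10, SE 0.12, adjusted p = 2.07e-05, edgeR). The 3 mKO libraries lay close together for these genes relative to the distance between the groups, and mKO library 2 was the lowest of the 3 for each.

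Ndufs8 carries a pair of iron-sulphur clusters between Ndufs1 and Ndufs7 (chr19:3908870-3912717, minus strand). It had 162, 124 and 145 CPM in mKO and 270.0, 297 and 259.8 CPM in WT (log2 fold change -0.94, SE 0.12, adjusted p = 9.4e-05, edgeR). Ndufs3, a matrix-arm scaffold that enters assembly early (chr2:90894634-90904827, minus strand), had 150.4, 114 and 129 CPM in mKO and 222, 263 and 245 CPM in WT (log2 fold change -0.89, SE 0.13, adjusted p = 0.000161, edgeR). Both carry or support the chain to ubiquinone, and their groups did not overlap. Ndufv2 holds an iron-sulphur cluster of the NADH-oxidising tip (chr17:66078795-66101559, minus strand). It had 387, 311 and 343 CPM in mKO and 575, 629.8 and 647 CPM in WT (log2 fold change -0.83, SE 0.12, adjusted p = 0.000159, edgeR). Ndufv1 binds NADH and the flavin at that tip (chr19:4007497-4012806, minus strand). It had 195, 183 and 168 CPM in mKO and 239, 366 and 231 CPM in WT, with WT library 2 well above the other 2 (log2 fold change -0.61, SE 0.16, adjusted p = 0.0101, edgeR). Ndufv1 was the core subunit with the smallest fall, and it was not called without mKO library 3, where its log2 fold change was -0.56, nor with library totals, where it was -0.15. The other 5 described here were also called lower with library totals, as were 4 of 29 accessory subunits and 6.75% of all genes.

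**Figure D2:**
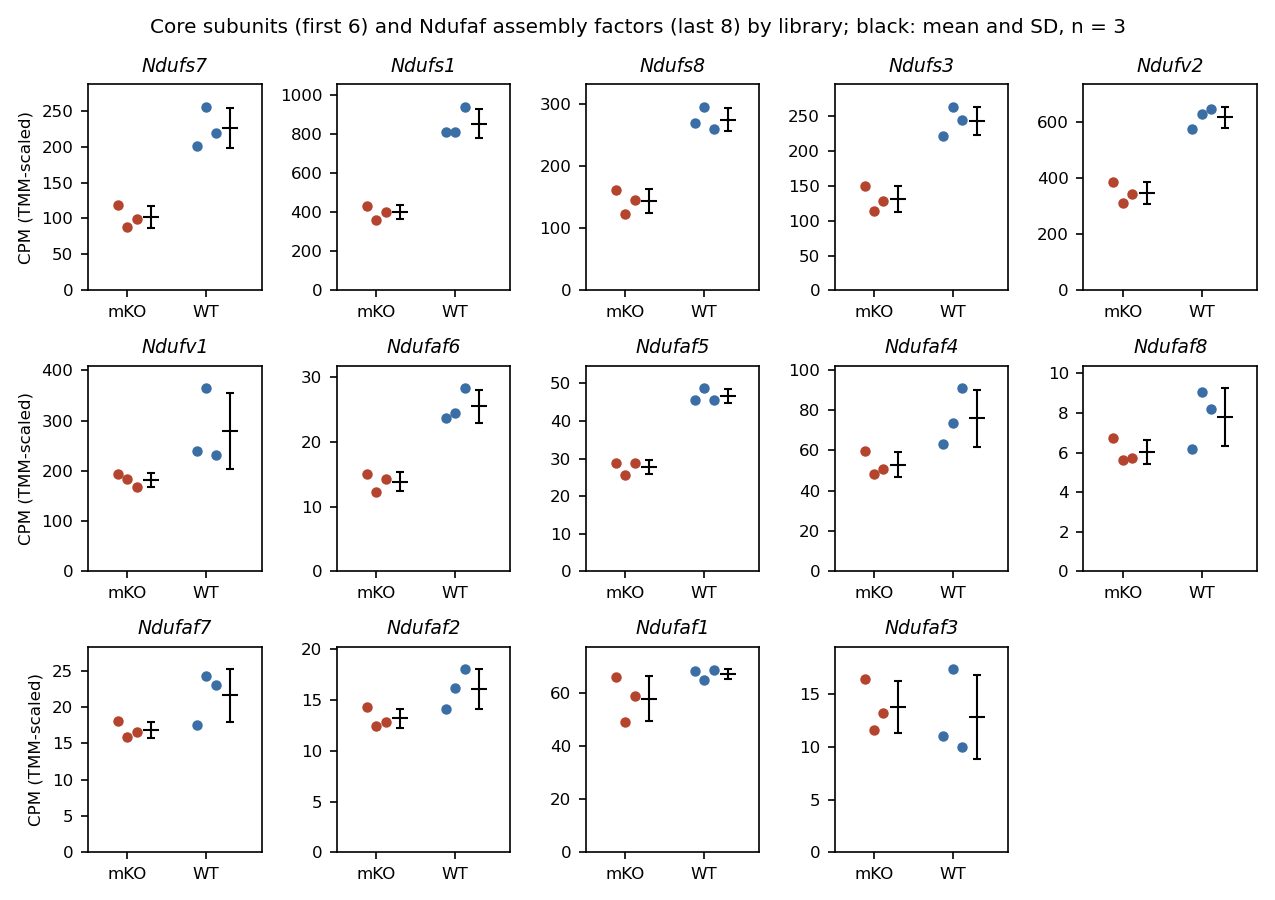
TMM-scaled CPM of 6 core subunits and the 8 Ndufaf assembly factors, one point per library, mKO left and WT right, with the mean and SD of 3 libraries in black and a linear axis from 0 in each panel. The groups are apart for the 6 core subunits and for Ndufaf6, Ndufaf5 and Ndufaf4, and overlap for the other 5; the scale sets the level of the mKO points relative to WT, and with library totals Ndufaf1, Ndufaf2, Ndufaf3, Ndufaf7 and Ndufaf8 have fold changes above 0.

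Of 29 accessory subunits, 23 were lower in mKO and 0 were higher (edgeR with TMM factors, 79.3% lower, beside 18.9% of all genes). Their median log2 fold change was -0.59. By place in the complex, 7 of 9 of the matrix arm, 9 of 9 of the membrane arm next to it and 7 of 10 of the distal membrane arm were lower, with medians of -0.59, -0.59 and -0.57. With library totals these 3 groups had 2, 1 and 1 members called lower, none called higher, and medians of -0.12, -0.12 and -0.11. Of all genes, 6.75% were called lower on that scale. The 4 accessory subunits with the lowest fold changes came from all 3 places. Ndufv3, a small subunit of the NADH-oxidising tip, had 142, 109 and 123 CPM in mKO and 207, 269 and 210.1 CPM in WT (log2 fold change -0.88, SE 0.14, adjusted p = 0.000343, edgeR). Ndufa9, which lies beside the ubiquinone pocket, had 191, 165 and 176 CPM in mKO and 299.8, 343 and 320.3 CPM in WT (log2 fold change -0.86, SE 0.11, adjusted p = 8.47e-05, edgeR). Ndufb8, of the distal membrane arm, had 264, 206 and 223 CPM in mKO and 383, 449 and 405 CPM in WT (log2 fold change -0.84, SE 0.12, adjusted p = 0.000214, edgeR). In each of these the groups were apart. Ndufa3, of the membrane arm next to the matrix arm, had 116, 89.2 and 89.3 CPM in mKO and 129, 255 and 152 CPM in WT (log2 fold change -0.86, SE 0.21, adjusted p = 0.00632, edgeR). Its groups did not overlap either, but WT library 2 was well above the other WT libraries, and the SE was the largest of the called subunits. With library totals Ndufa3 was not called, at -0.40, while Ndufv3, Ndufa9 and Ndufb8 were, together with Ndufc1. The accessory subunits called lower and not described singly ran from -0.84 (Ndufc1) to -0.37 (Ndufa7) with TMM factors, among them Ndufs4, which helps to hold the NADH-oxidising tip in place, at -0.68, and Ndufa10 and Ndufa11 of the membrane arm, at -0.60 and -0.55.

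At the other end, 6 subunits were not called. Ndufab1, the mitochondrial acyl carrier protein, is bound in both arms of complex I and also serves fatty acid synthesis. It had 115, 85.0 and 101 CPM in mKO and 91.0, 136 and 124 CPM in WT, so that WT library 1 lay below 2 of the mKO libraries (log2 fold change -0.23, SE 0.16, adjusted p = 0.279, edgeR). Ndufa5, an accessory subunit of the matrix arm, had 278, 215 and 252 CPM in mKO and 268, 322 and 306 CPM in WT (log2 fold change -0.27, SE 0.12, adjusted p = 0.115, edgeR). Ndufb7 had 97.8, 76.1 and 81.4 CPM in mKO and 87.6, 149 and 86.6 CPM in WT (log2 fold change -0.34, SE 0.19, adjusted p = 0.181, edgeR). Ndufb10 had 221, 168 and 209 CPM in mKO and 220.4, 306 and 247 CPM in WT (log2 fold change -0.37, SE 0.14, adjusted p = 0.0613, edgeR). Both are distal membrane arm subunits that face the intermembrane space, and in both WT library 2 was the highest of all 6 libraries. All 4 of these genes overlapped between the groups, and all 4 had log2 fold changes above 0 with library totals, of 0.10 to 0.24. The other 2 were Ndufs6, a zinc-binding subunit added late, and Ndufb5. For Ndufs6 the log2 fold change was -0.59, as low as the median accessory subunit, but the SE was 0.24, with 94.6, 80.0 and 96.9 CPM in the mKO libraries against 81.7, 203 and 123 CPM in the WT libraries (edgeR adjusted p = 0.0752); without WT library 1 it was called, at -0.85. Without that library Ndufb5 and Ndufb10 were called lower too, at -0.51 and -0.48, and Ndufb5 also without mKO library 1, at -0.53. Both were called in DESeq2, with robust dispersion and with no filter on low counts.

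The levels of the subunits spread widely per kilobase of listed exons. On that scale the mKO mean ran from 14.5 to 840 CPM around a median of 90.9. The WT mean ran from 17 to 1350 CPM, a range of 79.3-fold, around a median of 153. Much of this range comes from the division by listed exon length. Before it, WT means ran from 94.7 CPM (Ndufb6) to 878 CPM (Ndufb9). The lowest subunits per kilobase, Ndufab1, Ndufb7 and Ndufb2, have 6883, 4522 and 5628 listed exon bases. Their WT means before division were 117, 108 and 188 CPM. The highest level belonged to Ndufb9, a distal membrane arm subunit, at 840 CPM per kilobase in mKO and 1348 in WT. Its values before division by length were 594, 489.6 and 556 CPM in mKO and 862, 883 and 887 CPM in WT, without overlap (log2 fold change -0.68, SE 0.11, adjusted p = 0.000477, edgeR), and with library totals its fold change of -0.22 was not called. Next came Ndufa6, a matrix arm subunit, with 334, 286 and 301 CPM in mKO and 359, 415 and 419.7 CPM in WT (log2 fold change -0.37, SE 0.11, adjusted p = 0.0219, edgeR). Ndufa1, a small membrane subunit encoded on the X chromosome and after these the highest accessory subunit by its mean over both groups, had 167, 129 and 144 CPM in mKO and 164, 220.1 and 191 CPM in WT, with WT library 1 below mKO library 1 (log2 fold change -0.39, SE 0.14, adjusted p = 0.0399, edgeR). The last 2 genes, with Ndufa7 and Ndufb3, were called lower with TMM factors but had log2 fold changes of 0.04 to 0.09 with library totals, and each of the 4 lost its call under some alternatives. Ndufa1, Ndufa6 and Ndufa7 were not called without WT library 3, mKO library 2 or mKO library 3, at -0.40 to -0.30 on the log2 scale. Ndufa1 was also lost without WT library 2 (-0.28), Ndufa7 without WT library 1 (-0.30), and Ndufb3 without WT library 3 (-0.36) or mKO library 2 (-0.35). Ndufa1 and Ndufa7 were not called with upper-quartile factors (-0.32 and -0.31) or a filter at a mean CPM of 1 (-0.36 and -0.34), nor Ndufa1 and Ndufa6 with replicate numbers as a block (-0.39 and -0.37). The order of the subunits by level was nearly the same in both groups (Spearman correlation of mKO and WT levels per kilobase 0.98, over 36 genes measured in the same libraries). Both levels were divided by the same exon length, and subunits stood at 45.2% to 85.5% of their WT means. That leaves little room for another order.

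**Figure D3:**
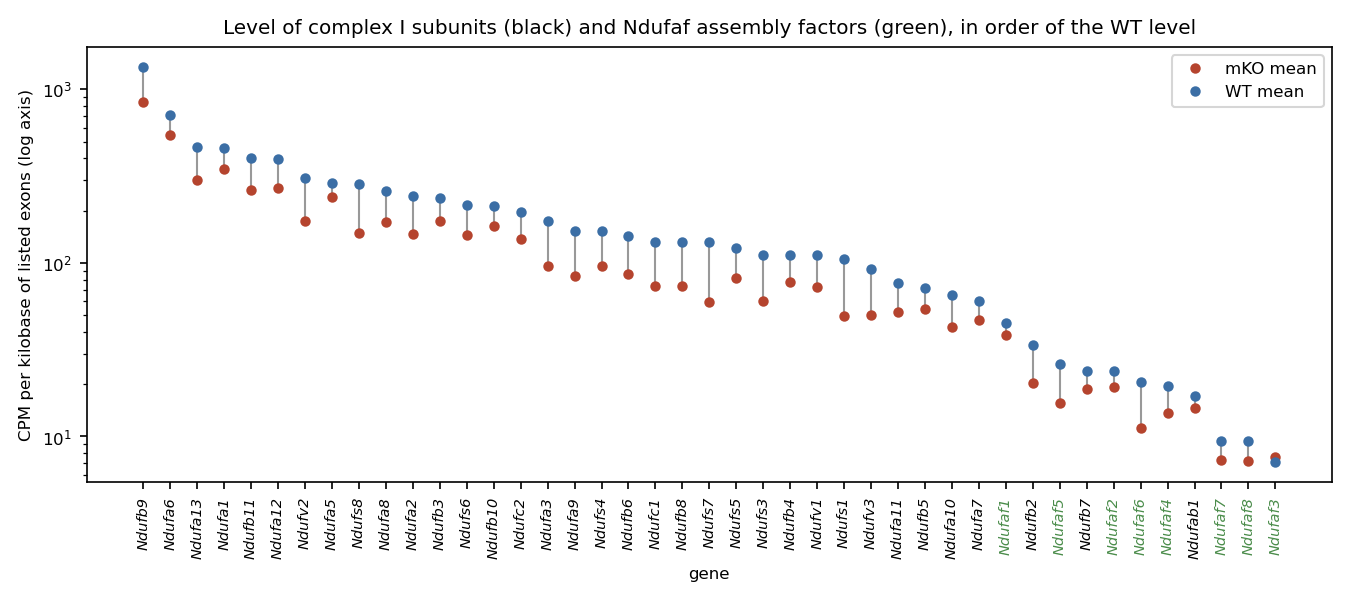
Mean level of 35 subunits (black names) and 8 Ndufaf assembly factors (green names), in order of the WT level. The log axis is in CPM per kilobase of listed exons, so the order rests in part on the listed exon lengths. Red points are mKO means and blue points WT means, 3 libraries each. The assembly factors stand at the low end, 7.23 to 38.5 in mKO and 7.09 to 44.8 in WT; with TMM factors Ndufaf3 is the gene with the mKO mean above the WT mean, and with library totals the mKO points of 14 of the genes have fold changes above 0.

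The Ndufaf assembly factors were expressed at lower levels than the subunits, with a median of 12.4 CPM per kilobase in mKO and 20.1 in WT. With TMM factors 3 of 8 were lower in mKO by edgeR (37.5%, beside 18.9% of all genes) and 0 were higher, with a median log2 fold change of -0.37, while with library totals 2 were lower, 1 was higher and the median was 0.10. No assembly factor was higher at an unadjusted edgeR p under 0.05, with 5 lower, or in DESeq2 or limma-voom, each with 3 lower. With library totals 6.75% of all genes were called lower and 49.0% higher, around a median of 0.49. The median of the assembly factors minus that of all genes was -0.39. All 3 that fell did so without overlap between the groups. The count was 5 without WT library 1, where Ndufaf7 and Ndufaf8 were called lower as well, at -0.50 and -0.52.

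Ndufaf6, needed in human cells early in assembly for the membrane arm around Nd1, lies on chr4:11051045-11076205, minus strand. It had 15.1, 12.2 and 14.3 CPM in mKO and 23.7, 24.4 and 28.4 CPM in WT, a fall to 54.4% of the WT mean (log2 fold change -0.88, SE 0.13, adjusted p = 0.000199, edgeR). Ndufaf5 hydroxylates an arginine of Ndufs7 in human cells, and lies on chr2:140170649-140203689, plus strand. It had 28.9, 25.6 and 28.7 CPM in mKO and 45.5, 48.9 and 45.6 CPM in WT (log2 fold change -0.75, SE 0.11, adjusted p = 0.000144, edgeR). Both were also called lower with library totals, at -0.41 and -0.29, and their 3 mKO values lay close together. Ndufaf4 (chr4:24898083-24905001, plus strand) acts with Ndufaf3 on an early module of the matrix arm. It had 59.8, 48.1 and 51.0 CPM in mKO and 63.1, 73.5 and 91.2 CPM in WT, with mKO library 1 close to WT library 1 (log2 fold change -0.52, SE 0.14, adjusted p = 0.0122, edgeR). Its call was lost without WT library 3, at -0.37, without mKO library 3, at -0.49, and with library totals, at -0.05.

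The other 5 assembly factors overlapped between the groups and were not called. Ndufaf8, which stabilises Ndufaf5 in human cells (chr11:120098928-120100705, plus strand), had 6.72, 5.63 and 5.75 CPM in mKO and 6.21, 9.07 and 8.19 CPM in WT (log2 fold change -0.38, SE 0.17, adjusted p = 0.111, edgeR). Ndufaf7, a methyltransferase of complex I assembly in human cells (chr17:78937135-78948052, plus strand), had 18, 15.9 and 16.5 CPM in mKO and 17.5, 24.3 and 23.1 CPM in WT (log2 fold change -0.36, SE 0.14, adjusted p = 0.0565, edgeR). For both, WT library 1 lay among the mKO values and the other 2 WT libraries lay above them. Ndufaf2, a relative of the subunit Ndufa12 that acts late in assembly (chr13:108052590-108158625, minus strand), had 14.2, 12.5 and 12.8 CPM in mKO and 14.1, 16.1 and 18 CPM in WT (log2 fold change -0.29, SE 0.13, adjusted p = 0.109, edgeR), and mKO library 1 was just above WT library 1. Ndufaf1, part of a membrane-bound assembly complex with Ecsit, Acad9 and Tmem126b (chr2:119655446-119662827, minus strand), had 65.9, 48.9 and 58.6 CPM in mKO and 68.0, 65.0 and 68.5 CPM in WT (log2 fold change -0.22, SE 0.12, adjusted p = 0.185, edgeR). Here the highest mKO library reached the WT range. Ndufaf3 (chr9:108565537-108567434, minus strand) had 16.5, 11.6 and 13.3 CPM in mKO and 11.1, 17.5 and 10.04 CPM in WT (log2 fold change 0.10, SE 0.20, adjusted p = 0.733, edgeR). Its WT values spread so widely, with library 2 above and libraries 1 and 3 below all mKO values, that no direction can be given with TMM factors. With library totals it was the only member of the 46 called higher, at a log2 fold change of 0.57. On that scale the median over all genes was 0.49, and 49.0% of all genes were called higher.

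Because the scaling moves every gene by the same amount, each member was also tested against the summed counts of the 36 nuclear subunits in its own library, an edgeR fit in which that sum took the place of the library size. Of 36 subunits, 2 were lower and 2 higher relative to the sum, 32 were not called, and the median log2 difference was 0.07. The subunits called lower were Ndufs7 (log2 difference -0.47, SE 0.14, edgeR adjusted p = 0.0103) and Ndufs1 (log2 difference -0.42, SE 0.14, edgeR adjusted p = 0.0188), both core subunits. Those called higher were Ndufab1 (log2 difference 0.46, SE 0.15, edgeR adjusted p = 0.0159) and Ndufa5 (log2 difference 0.41, SE 0.14, edgeR adjusted p = 0.0171). Each subunit is part of its own denominator, and in the same fit 3.54% of all genes were lower and 60.6% higher (64.1% in all). Per 10000 subunit counts, Ndufs7 made up 160.0, 148 and 151 in the mKO libraries and 204, 226 and 204 in the WT libraries. Ndufs1 made up 585, 610.0 and 611 in mKO and 821, 715 and 876 in WT. Ndufab1 made up 155, 144 and 153 in mKO and 92.3, 119.7 and 116 in WT. All 3 were apart between the groups on this scale.

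Against the same sum, 3 of 8 assembly factors were higher in mKO (37.5%, beside 60.6% of all genes) and 0 were lower (beside 3.54%), with a median of 0.32, beside 0.71 over all genes tested. They were Ndufaf3 (log2 difference 0.78, SE 0.19, edgeR adjusted p = 0.00193), Ndufaf1 (log2 difference 0.45, SE 0.15, edgeR adjusted p = 0.0137) and Ndufaf2 (log2 difference 0.40, SE 0.16, edgeR adjusted p = 0.0376). Ndufaf3 made up 22.2, 19.6 and 20.2 per 10000 subunit counts in the mKO libraries and 11.2, 15.4 and 9.35 in the WT libraries. Ndufaf1 made up 89.0, 82.6 and 89.1 in mKO and 69.0, 57.3 and 63.9 in WT. The 3 genes that fell with TMM factors, Ndufaf4, Ndufaf5 and Ndufaf6, had values of 0.16, -0.07 and -0.20 here, and none of these was called. The 7 calls among the 46 members depended on the settings. Without mKO library 3, with the threshold at 0.01 or with the replicate number as a block, Ndufaf3 was the 1 call left; it was called under every alternative tried for this fit. Summed, the 8 assembly factors had 3.04, 3.04 and 3.05 counts per 100 subunit counts in the mKO libraries, against 2.53, 2.46 and 2.73 in the WT libraries, and the groups did not overlap.

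**Figure D4:**
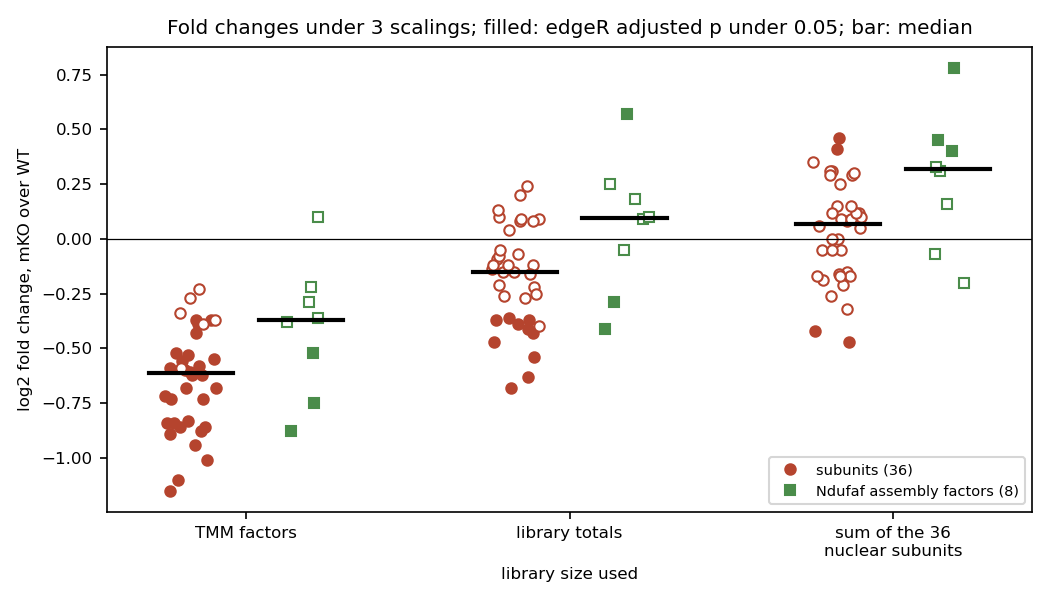
Log2 fold change, mKO over WT, of the 36 subunits (circles) and 8 Ndufaf assembly factors (squares) with 3 choices of library size; bars are medians and filled symbols have an edgeR adjusted p under 0.05. The subunit medians are -0.62, -0.15 and 0.07 and those of the assembly factors are -0.37, 0.10 and 0.32. The sign of the assembly factor median turns with the scale; a change of library size moves all genes by about the same amount, to medians of 0.02, 0.49 and 0.71.

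The family name also covers 2 genes that are not in complex I. Ndufa4, now known as a subunit of complex IV, had 439, 322 and 346 CPM in mKO and 606, 627 and 630.3 CPM in WT. The groups were far apart (log2 fold change -0.75, SE 0.13, adjusted p = 0.000614, edgeR), although with library totals the log2 fold change of -0.28 was not called. Ndufa4l2, its relative that is induced by hypoxia in several cell types, was near the lower limit of the data. It had 1.17, 2.13 and 1.32 CPM in mKO and 1.40, 1.56 and 2.12 CPM in WT (log2 fold change -0.14, SE 0.30, adjusted p = 0.749, edgeR), and the groups overlapped.

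The 7 complex I subunits encoded by mitochondrial DNA form the core of the membrane arm. All 7 of the mt-Nd genes were called lower in mKO (edgeR with TMM factors), with a median log2 fold change of -1.06. With library totals 4 were called lower, 0 higher and all 7 values stayed below 0. Of all genes, 18.9% were called lower with TMM factors and 6.75% with library totals. mt-Nd1, next to the ubiquinone pocket, had 1284, 1493 and 1315 CPM in mKO and 3852, 4299 and 4614 CPM in WT (log2 fold change -1.64, SE 0.12, adjusted p = 1.3e-06, edgeR). mt-Nd2 had 489, 529 and 437 CPM in mKO and 1214, 1250 and 1251 CPM in WT (log2 fold change -1.35, SE 0.11, adjusted p = 3.24e-06, edgeR). mt-Nd4 had 979.7, 1025 and 926 CPM in mKO and 2071, 2145 and 1908 CPM in WT (log2 fold change -1.06, SE 0.11, adjusted p = 1.5e-05, edgeR). In each the groups were far apart. They stood at 32.1%, 39.2% and 47.8% of their WT means. mt-Nd3 stood at 32.3%, mt-Nd4l at 50.5%, mt-Nd6 at 58.8% and mt-Nd5 at 60.8%. The nuclear subunits ran from 45.2% to 85.5%, so mt-Nd1, mt-Nd2 and mt-Nd3 lay below that range and the other 4 inside it. The percentage of mt-Nd4l is uncertain, as it had 95 counts summed over the mKO libraries and 145 over the WT libraries. Its call was close to the threshold (edgeR adjusted p = 0.049). mt-Nd3 was also low beside mt-Nd1, mt-Nd2 and mt-Nd4, with means of 10.2 CPM in mKO and 31.4 CPM in WT. Against the summed nuclear subunits, mt-Nd1, mt-Nd2, mt-Nd3 and mt-Nd4 were lower, at -0.94, -0.66, -0.90 and -0.37. In that fit mt-Nd4l, mt-Nd5 and mt-Nd6 were not called, at -0.33, -0.03 and -0.08. Of all genes, 3.54% were lower and 60.6% higher in it. Per 100 counts of nuclear subunits there were 72.6, 98.1 and 88.5 mt-Nd counts in the mKO libraries and 122, 109 and 116 in the WT libraries. Mitochondrial genes have copies in the nuclear genome, so their counts are uncertain.

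Of 11 listed assembly factors with other names, 10 were matched, and 3 were lower in mKO and 0 higher with TMM factors (edgeR, where 18.9% of all genes were lower; median log2 fold change -0.22). With library totals 1 was lower and 3 were higher, Nubpl, Foxred1 and Dmac1, where 49.0% of all genes were higher, and the median was 0.25. Dmac2, needed for the distal membrane arm, had 9.78, 8.73 and 8.01 CPM in mKO and 19.2, 18.8 and 17.6 CPM in WT (log2 fold change -1.07, SE 0.13, adjusted p = 4.82e-05, edgeR). Acad9 had 35.3, 30.9 and 37.0 CPM in mKO and 56.1, 49.5 and 58.0 CPM in WT (log2 fold change -0.66, SE 0.11, adjusted p = 0.000646, edgeR). Tmem126b had 37.7, 36.7 and 38.5 CPM in mKO and 53.1, 45.2 and 59.2 CPM in WT (log2 fold change -0.48, SE 0.12, adjusted p = 0.00605, edgeR). In each of the 3 the groups were apart. Acad9 and Tmem126b are partners of Ndufaf1, and their own log2 fold changes with library totals were -0.20 and -0.02, not called. Ecsit, the other partner, was not called with TMM factors, at -0.27, or with library totals, at 0.20. Against the nuclear subunit sum, 7 of the 10 were higher and 0 lower, where 60.6% of all genes were higher, and their median of 0.46 was below that of all genes, 0.71. The 10 together had 4.22, 4.62 and 4.34 counts per 100 subunit counts in mKO and 3.50, 3.19 and 3.34 in WT.

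**Figure D5:**
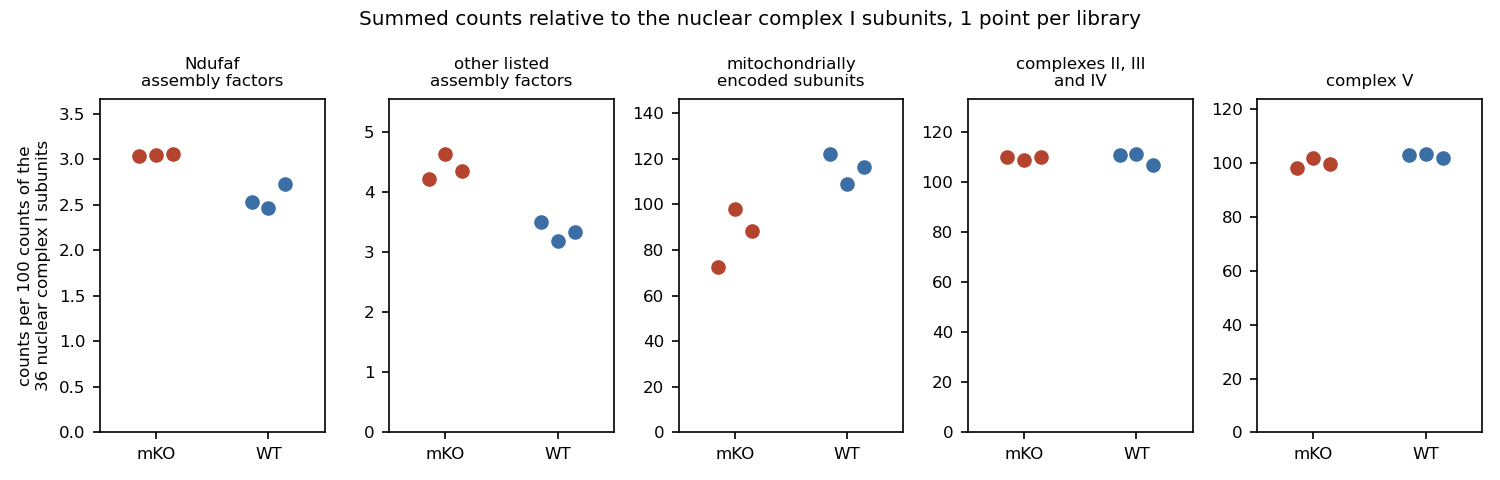
Summed counts of 5 gene groups per 100 counts of the 36 nuclear complex I subunits, one point per library, mKO left and WT right, linear axes from 0. The sums of both sets of assembly factors stand higher in mKO, as most genes do against this denominator (median log2 difference 0.71 over all genes, 0.32 and 0.46 over these sets); that of the mitochondrially encoded subunits stands lower, and complexes II to IV stand near 110 in both groups. These ratios do not use the scaling between libraries.

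Most listed genes of the other respiratory complexes were lower too. With TMM factors, edgeR called lower 4 of 4 listed genes of complex II, 9 of 9 of complex III, 8 of 10 of complex IV and 9 of 10 of complex V, with medians of -0.70, -0.56, -0.66 and -0.73 and 0 called higher. Cox5b, Cox6a2 and Atp5d were not called, at -0.62, 0.03 and -0.05. With library totals the medians were -0.24, -0.10, -0.19 and -0.27, and the counts called lower were 1, 2, 3 and 5. Cox6a2 and Atp5d were called higher on that scale, at 0.49 and 0.42, where the median over all genes was 0.49. Of all genes, 18.9% were called lower with TMM factors, and 6.75% lower and 49.0% higher with library totals. Per 100 counts of complex I subunits there were 110, 109 and 110 counts of complexes II to IV in the mKO libraries and 111, 111 and 107 in the WT libraries, and the groups overlapped. For complex V there were 98.0, 102 and 99.6 in mKO and 103, 103 and 102 in WT. As a share of all counts, the 36 subunits held 0.889%, 0.693% and 0.760% in mKO and 0.847%, 0.963% and 0.907% in WT, so on this scale mKO library 1 lay inside the WT range. Their summed TMM-scaled CPM was 7407, 5925 and 6584 in mKO and 9858, 11334 and 10732 in WT, without overlap.

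The 36 subunit genes lie on 15 chromosomes and the 8 assembly factors on 6. Some counts are uncertain, because the kit does not mark strand and exons of 13 subunits overlap another gene, by up to 39.0% of the listed exon bases in Ndufb6, 29.98% in Ndufa13 and 12.9% in Ndufb11. Of the 23 subunits with no such overlap 19 were lower with TMM factors (median -0.58), and of the 13 with overlap 11 were (median -0.73), while with library totals 5 of each were. Near-identical stretches elsewhere, at 95% identity or more over at least 200 bases, were searched among annotated transcripts. Genes of the count tables hold them for 9 members, Ndufa12, Ndufs3, Ndufs5, Ndufs6, Ndufb2, Ndufb4, Ndufb11, Ndufab1 and Ndufaf2. For Ndufb3 and Ndufb9 only annotated genes with no row in those tables hold them. Those of Ndufaf2 in the count tables are 203 to 282 bases long, in genes such as Lrrc8d, Patj and Slc38a6. The genes that hold such stretches had at most 345 counts in a library, the most for that of Ndufa12. These counts are of whole genes and not of the stretch alone.

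Promoter sequence was at hand for 40 of the 46 members, from 250 bases before to 50 bases after the start of each gene, taken from RefSeq on GRCm38.p6. Motifs of 4 regulators of respiratory genes were searched by their letters on both strands: those of YY1 and of NRF1 as spelled by the capitals in the stretches printed here, of which the NRF1 one is a palindrome, CCGGAAGT for ETS factors such as GABP, and TCAAGGTCA for ERR. The YY1 letters stood in 4 of 32 subunit promoters (12.5%) and 1 of 7 assembly factor promoters (14.3%), where 0.995% of 27025 genes have them. The stretches that hold them are shown because they include Ndufs7, the core subunit with the largest fall, and Ndufaf8. Each is 5′ to 3′ along the gene, with the motif in capitals.
Ndufs7: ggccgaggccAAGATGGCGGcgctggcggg
Ndufa9: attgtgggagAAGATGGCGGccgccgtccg
Ndufs4: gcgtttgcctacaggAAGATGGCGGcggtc
Ndufs6: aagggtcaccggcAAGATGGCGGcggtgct
Ndufaf8: ggcagggcccAAGATGGCGGcgccctcgag

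These 5 stretches lie at chr10:80249463-80249492 (plus strand), chr6:126849096-126849125 (minus strand), chr13:114388045-114388074 (minus strand), chr13:73328433-73328462 (minus strand) and chr11:120098934-120098963 (plus strand). In each the YY1 letters run along the gene and begin after its start, at bases 25, 30, 36, 34 and 11. The log2 fold changes of these genes with TMM factors were -1.15, -0.86, -0.68, -0.59 and -0.38, which spans most of the range of all subunits, and the last 2 were not called. With library totals they were -0.68, -0.39, -0.21, -0.12 and 0.09.

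The NRF1 letters stood in 1 subunit promoter, that of Ndufa11 (3.12%), and in 2 of 7 assembly factor promoters (28.6%), those of Ndufaf4 and Ndufaf5, where 1.07% of all genes have them. These are shown because Ndufaf4 and Ndufaf5 are 2 of the 3 assembly factors that fell.
Ndufa11: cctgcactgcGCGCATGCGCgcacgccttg
Ndufaf4: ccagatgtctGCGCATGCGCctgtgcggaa
Ndufaf5: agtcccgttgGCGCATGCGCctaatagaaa

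They lie at chr17:56717692-56717721 (plus strand), chr4:24897960-24897989 (plus strand) and chr2:140170652-140170681 (plus strand), with the motif 60 and 113 bases before the start in Ndufa11 and Ndufaf4 and from base 17 after it in Ndufaf5. The ETS letters were found in the promoter of Ndufs3 alone among the members, where 4.31% of all genes have them, and the ERR letters in none, where 0.466% of all genes have them. In each stretch shown no other of the 4 motifs overlaps the one in capitals. With TMM factors the log2 fold changes of Ndufa11, Ndufaf4 and Ndufaf5 were -0.55, -0.52 and -0.75. With library totals they were -0.08, -0.05 and -0.29, and of these genes only Ndufaf5 was called. A match is a run of letters and was not measured as binding. Whether such letters bear on the fold changes was not tested. Ndufaf6, whose RNA fell most among the assembly factors, is not among the genes with a promoter sequence here.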

How the data were processed

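Total RNA was extracted from frozen gastrocnemius with Trizol and made into libraries with the NEBNext Ultra RNA kit, per the labels' protocols; this kit does not mark strand. Each library has a deposited table of whole, unnormalized counts per gene. Per the submitters' processing notes, the authors used Trimmomatic 0.36, the aligner STAR 2.5.2b and, for counting, featureCounts (Subread 1.5.2) on GRCm38 (mm10). The sources used here do not give the strand setting, pair counting or treatment of multiply mapped reads. Groups came from the sample titles. Symbols were matched by gene identifier for 48970 of 49315 rows, and coordinates are those of the count tables.

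From the counts, CPM values and the quasi-likelihood test of edgeR 4.0.16 (R 4.3.3) were computed with TMM factors, edgeR's default expression filter by group (16650 genes kept), group as the only term and Benjamini-Hochberg adjustment at 0.05 over all genes tested. Every adjusted p comes from such a fit. Each SE was derived from it, as the absolute log2 fold change divided by the square root of the F statistic of that test. The biological coefficient of variation was 16.1%. A second fit used the summed counts of the 36 nuclear subunits as library size. The steps were tested on simulated counts with few genes changed, equally in both directions, and no shift in scaling between the groups. That simulation does not bear on the choice of library size. Alternatives were library totals, other scaling factors, filters, thresholds, DESeq2 1.42.0, limma-voom (limma 3.58.1), the replicate number as a block, and leaving out each library. Those of the second fit were chosen after seeing the data.

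Within groups, libraries differed by more than counting noise (chi-square per degree of freedom 20.9 to 57.7), and all 6 were counted as separate. The labels give no batch and do not say that replicates are separate animals beyond their numbers, so p-values measure only the spread between these samples, which may in part be technical. Totals of 32108684 to 42344238 counts gave at least 2111 counts of each subunit and 186 of each assembly factor in a library. Near-identical stretches were searched with BLAST 2.17.0.

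The members and gene lists were chosen with earlier results of these data known. Values in every library are given for the assembly factors, 6 of 7 core subunits (the other is not reported here), the 4 lowest, 4 highest and 3 most abundant accessory subunits, Ndufa4 and Ndufa4l2, and up to 3 members by lowest p of each list of mitochondrially encoded subunits, other assembly factors and regulators; the other complexes were counted only. Ndufs6, Ecsit, the other 4 mt-Nd genes, Cox5b, Cox6a2, Atp5d, Ppargc1a, Yy1, Nrf1, Esrrb and Esrrg were chosen after their values were seen. So were Myh1, Myh7, Ndufb2 and Ndufb6, and genes named for a call lost or gained.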

Additional observations from a re-analysis of the deposited data

How the results depend on the processing

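The choice of library size decided most of what changed. When library totals replaced TMM factors, 9275 genes were called against 6166, and 87.9% of the calls were higher in mKO, against 49.0%; subunits called lower numbered 10, against 30, with a median log2 fold change of -0.15, and of the assembly factors 1 was called higher and the median reversed to 0.10. The fold changes that turned above 0 under library totals were those of Ndufb3 (0.04), Ndufa1 and Ndufb5 (0.08 each), Ndufa6, Ndufa7 and Ndufaf8 (0.09 each), Ndufb10 and Ndufaf7 (0.10 each), Ndufb7 (0.13), Ndufaf2 (0.18), Ndufa5 (0.20), Ndufab1 (0.24), Ndufaf1 (0.25) and Ndufa4l2 (0.32). With the threshold at 0.01, 3973 genes were called, and 1 member differed relative to the subunit sum instead of 7. Under the other scalings, filters, tools and thresholds 25 to 34 subunits were lower and 0 higher.

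Leaving out 1 library at a time, 26 to 32 subunits were lower, 25 of the 30 in every such fit, and all 36 fold changes stayed below 0. The count of lower assembly factors ranged from 2 to 5 and their median from -0.51 to -0.28, the count differing from the subunit sum from 1 to 9. Ndufaf3 ranged from -0.06 to 0.38 and Ndufa4l2 from -0.44 to 0.05, both across 0. The cause was not tested. Deviations of same-numbered libraries correlated at -0.00 to 0.02, which gives no sign of pairing by number but cannot exclude it. With the replicate block 5519 genes, 28 subunits lower and 3 assembly factors lower were called, and 1 member, Ndufaf3, relative to the subunit sum. Among the assembly factors depth limits Ndufaf8 most, with 186 counts in its shallowest library.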

Other observations

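Of 10 listed regulators of respiratory genes, 1 was lower in mKO and 0 higher with TMM factors (edgeR, where 18.9% of all genes tested were lower; median log2 fold change 0.03 beside 0.02). With library totals 1 was lower, 7 were higher (70.0%, beside 49.0% of all genes) and the median was 0.50, beside 0.49 over all genes. Esrra, a nuclear receptor that drives genes of the respiratory chain, was the one that fell. It had 62.6, 41.6 and 54.6 CPM in the 3 mKO libraries and 94.2, 104 and 91.4 CPM in the 3 WT libraries, without overlap (log2 fold change -0.86, SE 0.14, edgeR adjusted p = 0.000495), and it stayed lower with library totals, at -0.40. Ppargc1a, the coactivator known as PGC-1 alpha, averaged 91.1 CPM in mKO and 86.8 CPM in WT (log2 fold change 0.07, edgeR adjusted p = 0.70); with library totals it was called higher, at 0.54 (edgeR adjusted p = 0.00297). Its relative Ppargc1b had 4.56, 5.21 and 4.05 CPM in mKO and 3.87, 3.19 and 3.19 CPM in WT, the highest log2 fold change of the list, 0.43, not called with TMM factors (edgeR adjusted p = 0.0913) and called with library totals, at 0.90 (edgeR adjusted p = 0.00182). Gabpa had 51.3, 52.6 and 51.7 CPM in mKO and 55.9, 61.1 and 67.9 CPM in WT. In both of these the groups were apart. Among the genes of factors whose motif letters were searched, Yy1, Nrf1 and Gabpa had log2 fold changes of -0.00, -0.02 and -0.25 with TMM factors. None of these was called. With library totals they were 0.46, 0.44 and 0.22, and Yy1 and Nrf1 were called higher. The ERR letters were searched too, and of the ERR genes Esrra fell, as given above. Esrrb and Esrrg were not called with TMM factors, at 0.36 and 0.16. With library totals both were called higher, at 0.83 and 0.63. The RNA level of a factor does not measure its activity.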
